A study of Dendrobium nobile with 12 samples.

Results

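The 200 gene models described here are those with the longest coding sequences among the models that were transcribed throughout the orchid Dendrobium nobile. A model qualified when its FPKM, a count scaled to the length of the model and to the library total, was at least 1 in each of the 12 libraries, and 11654 of the 31672 models did so. Coding length was recovered from the deposited tables, as the count divided by the FPKM and by the library total, and members were chosen by this length and by the FPKM floor, as the 200 longest of the 11654 models. Their lengths ran from 4284 to 13050 bp with a median of 5210 bp, against a median of 1143 bp over all broadly expressed models. They lay on all 19 chromosomes, with 19 members each on chromosomes 6 and 13 and 5 each on chromosomes 10 and 16, and none on a scaffold. The rule used length and a floor on the level in every library and no difference between tissues, so the length and the presence of the members in all tissues are descriptions and not results.

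From greenhouse-grown plants, 6 tissues were taken for mRNA sequencing, with 2 libraries each. Root, stem and leaf, the vegetative tissues, came from 1-year seedlings. Bud, petal and labellum, the floral tissues, came from 2-year seedlings. The labellum is the modified petal, or lip, of an orchid flower, and the labels do not say what kind of bud was taken. Class of organ and seedling age therefore changed together and cannot be told apart. All libraries carry the same genotype label, and the treatment label names the tissues alone. The organism label is D. nobile, whereas the design text names D. officinale. Whether both libraries of a tissue are from different plants is not recorded, so the p-values below reflect library-to-library spread that may be technical. Whole tissues were sequenced, so fewer cells of a type and less RNA per cell cannot be told apart, and no marker list was used to check the tissues because the files pair no identifier with a gene name.

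A coding sequence is the part of a messenger RNA that is read into protein, so the longest ones encode the largest proteins of the cell. In plants such proteins are known to include molecular motors, chromatin remodelling factors, large kinases of the phosphatidylinositol kinase-like family and ABC transporters, and many of them are used by most cells. A longer messenger yields more sequenced fragments per molecule, which is why FPKM divides by length and why long models are counted with little sampling error. None of these functions can be assigned to a member here, and members are called by their identifiers as deposited.

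Total counts per library ran from 5289212 in root replicate 2 and 14165136 in root replicate 1 to 32040196 in leaf replicate 1. The lowest count of any member in any library was 54, in root replicate 2, where the median member had 581 counts, against 2867 in stem replicate 1. Bud was the tissue whose replicates lay farthest apart, with a biological coefficient of variation (the relative spread between libraries beyond counting noise) of 0.579, against 0.357 in root, 0.295 in labellum, 0.195 in petal, 0.0757 in stem and 0.0725 in leaf. All 200 members passed the filter on low counts and entered the fit, which tested 19123 models. For each model the fit took a single spread shared by all tissues, so its SE and p-values do not follow the tissues compared. They may be too wide for stem against leaf and too narrow for comparisons with bud.

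Long, broadly expressed models took a larger share of the counts in each vegetative library than in any floral one. The 200 members together took 3.48% and 3.20% of all counts in the root libraries, 2.66% and 2.66% in stem and 2.26% and 2.23% in leaf. In the floral libraries they took 0.629% and 0.886% in bud, 0.787% and 0.905% in petal and 1.39% and 1.22% in labellum. The groups did not overlap, and the mean share was 2.75% ± 0.503 in the former and 0.970% ± 0.283 in the latter (SD, n = 6 libraries from 3 tissues), a ratio of 2.84. The ratio stayed between 2.72 and 2.97 when each library was left out in turn. The 200 shortest broadly expressed models (153 to 264 bp), which share no model with the members, took 1.71% ± 0.296 in the vegetative and 2.47% ± 0.407 in the floral libraries (n = 6 each).

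The level of the typical member followed the same order. The median FPKM over the 200 members was 21.7 and 19.1 in the root libraries, 18.0 and 18.2 in stem, and 14.6 and 13.7 in leaf. It was 3.60 and 5.56 in bud, 4.57 and 5.05 in petal, and 7.76 and 7.004 in labellum. The median over all broadly expressed models moved far less, between 21.5 in bud replicate 1 and 27.3 in both stem libraries. Ranked among the broadly expressed models, the median member level stood at percentile 29.5 (leaf replicate 2) to 45.4 (root replicate 1) in the vegetative libraries and at percentile 9.95 (bud replicate 1) to 19.4 (labellum replicate 1) in the floral ones. The long models were thus near the middle of the range in root and in the lower part of it in the 6 floral libraries.

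**Figure D1:**
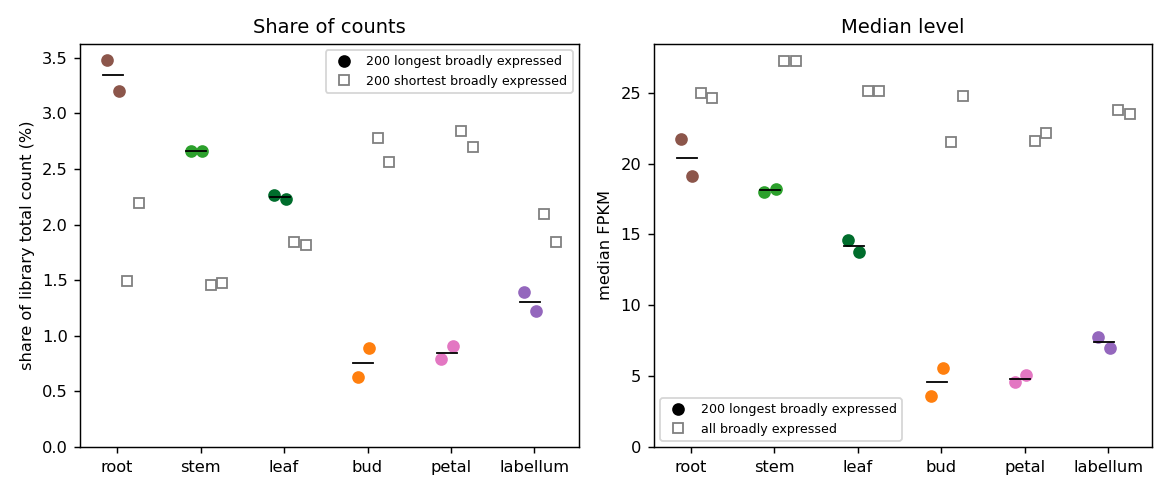
Share of each library's total count (left, in %) and median FPKM (right) by tissue; filled points are the 200 members in each of 2 libraries, black bars the mean of both, and open squares the 200 shortest broadly expressed models (left) or all 11654 broadly expressed models (right). The members' share runs from 0.629% in bud replicate 1 to 3.48% in root replicate 1.

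Most members were highest in root or stem and lowest in bud or petal. By mean FPKM, 101 members were highest in root, 77 in stem, 15 in leaf, 5 in labellum, 1 in bud and 1 in petal. The lowest mean was in bud for 91 members, in petal for 87, in leaf for 8, in labellum for 6, in root for 4 and in stem for 4. The share highest in a vegetative tissue was 96.5% of members, against 61.6% of all broadly expressed models and 25% of the 200 shortest. In 164 members (82.0%) each vegetative mean lay above each floral mean, which was so for 24.5% of all broadly expressed models. The most common order of the 6 tissues was root, stem, leaf, labellum, petal and bud, found in 41 members, followed by the same order with bud above petal in 26. Neighbours in that order were not equally well separated. Labellum lay above petal in 186 of the 200 members (58.5% of all broadly expressed models), leaf above labellum in 171 (50.6% of all) and stem above leaf in 171 (63.5% of all). Root lay above stem in 108 members (41.4% of all) and petal above bud in 101 (43.3% of all). These orders are by FPKM, which is scaled to the library total, and they depend on that scaling. In the fit below, which scales libraries by TMM factors, stem minus leaf was above 0 in 143 members and below 0 in 57. Over all broadly expressed models it was above 0 in 5813 and below 0 in 5841.

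The members differed from one another in how strongly they varied. The ratio of the highest to the lowest tissue mean ran from 1.52 to 81.3 with a median of 5.67, against a median of 3.72 over all broadly expressed models. It was at least 4-fold in 151 members (75.5%, against 46.2% of broadly expressed models) and at least 10-fold in 32 (16.0%, against 16.2%). Tested for a difference between any of the 6 tissues, 195 of the 200 members passed an adjusted p of 0.05 (edgeR quasi-likelihood test, Benjamini-Hochberg adjustment over all tested models), against 81.2% of all tested models.

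**Figure D2:**
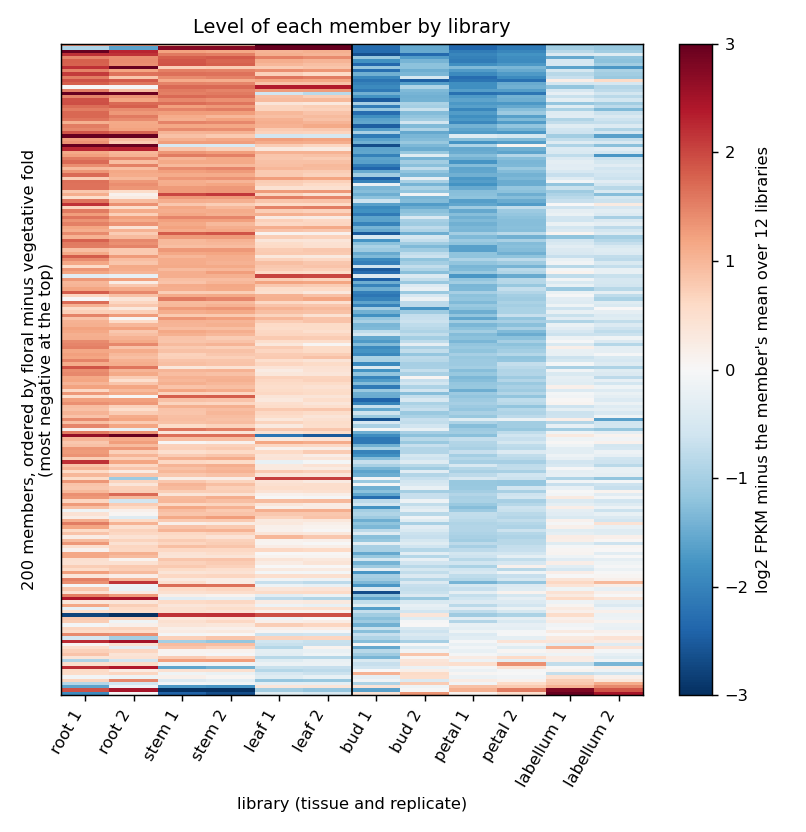
Level of the 200 members (rows) in the 12 libraries (columns), as log2 FPKM minus the member's mean over the 12 libraries, with colour from -3 or below (blue) to 3 or above (red) and the black line between vegetative and floral libraries. Most rows are red in root, stem and leaf and blue in bud and petal; the last few rows at the bottom are red in the floral columns.

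Floral tissues held lower levels of the long models than vegetative tissues did. In the fit over all models, with the 3 tissues of each class weighted equally, 147 of the 200 members were lower in floral tissues and 4 were higher (adjusted p under 0.05 and at least 2-fold; edgeR quasi-likelihood test, Benjamini-Hochberg adjustment). Among all tested models 21.0% were called lower and 24.0% higher. A further 34 members passed the adjusted p with a change under 2-fold, and 15 did not pass it. The median log2 fold change of the members was -1.44, with quartiles of -1.85 and -0.91, against 0.05 over all tested models and 0.13 over all broadly expressed models. For 135 members the call was lower and the 6 floral libraries all lay below the 6 vegetative ones, a combination met by 11.1% of tested models. The spread behind these p-values is that between replicates, not that between the 3 tissues pooled in each class. Without both bud libraries the calls were 131 lower and 4 higher, and without both root libraries 136 lower and 5 higher.

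The 3 members below fell the most between the classes with no overlap of libraries. evm.model.Chr06.1777-gene (chromosome 6, 4881 bp) stood at 113 and 109 FPKM in the root libraries, 77.7 and 78.1 in stem, 318 and 315 in leaf, 9.84 and 13.5 in bud, 8.69 and 9.23 in petal and 16.7 and 18.3 in labellum. Leaf was highest by a wide margin, and all floral libraries were far below the vegetative ones. Its log2 fold change was -3.27 ± 0.10 (SE), with an adjusted p of 6.23e-09 (edgeR quasi-likelihood test). The second, evm.model.Chr13.589-gene (chromosome 13, 5787 bp), stood at 63.7 and 39.3 FPKM in the root libraries, 18.6 and 18.1 in stem, 16.3 and 16.9 in leaf, 1.63 and 2.81 in bud, 1.86 and 2.07 in petal and 4.54 and 3.92 in labellum. Root was highest here, although its replicates differed, and the log2 fold change was -3.0 ± 0.16 with an adjusted p of 1.21e-07 in the same edgeR test. The third, evm.model.Chr08.1065-gene (chromosome 8, 5523 bp), stood at 61.8 and 61.4 FPKM in the root libraries, 40.5 and 39.1 in stem, 28.4 and 27.4 in leaf, 2.22 and 2.69 in bud, 3.54 and 3.91 in petal and 10.1 and 10.6 in labellum. Its levels fell in the order most common among the members, from root down to bud, and its log2 fold change was -2.92 ± 0.08 with an adjusted p of 4.70e-09 (edgeR).

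The 4 members that were higher in floral tissues were all under 5000 bp long. evm.model.Chr12.1280-gene (chromosome 12, 4290 bp) stood at 1.93 and 7.05 FPKM in the root libraries, 1.31 and 1.12 in stem, 5.51 and 5.06 in leaf, 9.55 and 17.8 in bud, 7.58 and 9.99 in petal and 55.9 and 39.04 in labellum. Its floral libraries all lay above its vegetative ones, with labellum highest and stem lowest. The log2 fold change was 2.80 ± 0.29 (SE) and the adjusted p 1.27e-05 (edgeR quasi-likelihood test). The other 3, named here because the count is small and outside the naming rule, had libraries that overlapped between the classes. They were evm.model.Chr19.35-gene, with a log2 fold change of 2.22 ± 0.26, evm.model.Chr14.1121-gene with 1.70 ± 0.23 and evm.model.Chr04.1307-gene with 1.07 ± 0.24. The adjusted p of these 3 in the edgeR test lay between 3.21e-05 and 0.00255.

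The 3 longest members showed the common pattern. The longest, evm.model.Chr09.103-gene (chromosome 9, 13050 bp), stood at 16.3 and 13.8 FPKM in the root libraries, 11.5 and 11.3 in stem, 7.74 and 8.5 in leaf, 1.02 and 3.82 in bud, 4.79 and 5.43 in petal and 7.07 and 1.98 in labellum. Its vegetative libraries lay above its floral ones, while the replicates within bud and within labellum differed several-fold. evm.model.Chr01.221-gene (chromosome 1, 11682 bp) stood at 21.5 and 17.2 FPKM in the root libraries, 12.3 and 13.1 in stem, 8.08 and 8.15 in leaf, 1.84 and 3.86 in bud, 2.95 and 3.22 in petal and 4.26 and 3.47 in labellum. evm.model.Chr18.1522-gene (chromosome 18, 11292 bp) stood at 19.8 and 19.7 FPKM in the root libraries, 16.2 and 16.1 in stem, 12.6 and 12.8 in leaf, 3.41 and 4.85 in bud, 3.65 and 4.38 in petal and 6.76 and 5.57 in labellum. In these members too the 6 floral libraries lay below the 6 vegetative ones, and root was highest. Their log2 fold changes, floral minus vegetative, were -1.31 ± 0.33, -1.72 ± 0.15 and -1.52 ± 0.10 (SE), with adjusted p of 0.00532, 4.38e-06 and 3.98e-07 (edgeR quasi-likelihood test). With each library's trend with coding length removed these fold changes turned to 0.94, 0.49 and 0.66. At such lengths the trend rested mostly on shorter models, so the turned values depend on how it was drawn there.

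**Figure D3:**
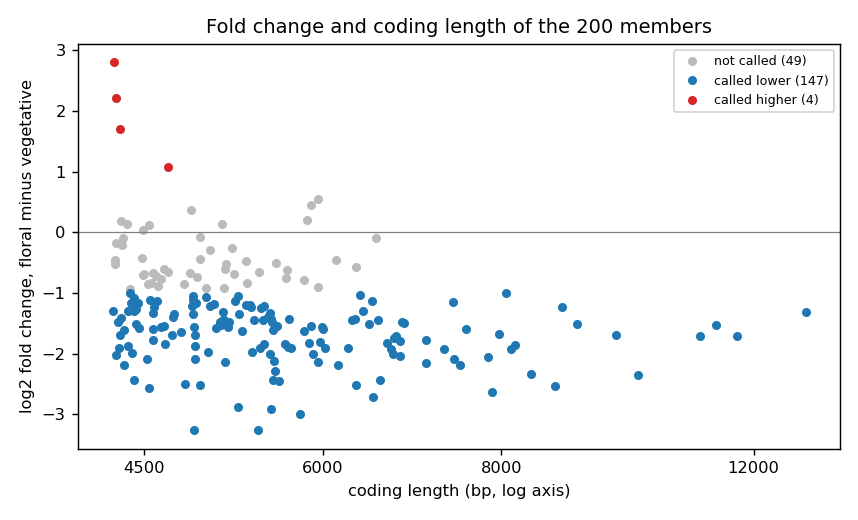
Log2 fold change, floral minus vegetative, of each of the 200 members against its coding length (bp, log axis), with the call by colour. The 4 members called higher lie under 5000 bp, as do 81 of the 200 members. The 4 members over 10000 bp are all called lower, as are 147 of the 200.

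Within the list, the longer members had the larger falls in floral tissues. Among the 50 longest members (5994 to 13050 bp) the median log2 fold change was -1.72 and 47 were called lower. Among the 50 shortest (4284 to 4626 bp) it was -1.13 and 28 were called lower. Spearman's rho of fold change with length was -0.362 across the 200 members, which share their libraries and are not independent replicates. Level made less difference, and without a steady direction. The 50 members with the lowest mean level (3.23 to 8.09 FPKM) had a median of -1.26 with 35 called lower, and the 50 with the highest (18.8 to 121 FPKM) had -1.46 with 36. Between them, the 50 from 8.155 to 12.36 FPKM had -1.598 with 42, and the 50 from 12.43 to 18.57 FPKM had -1.409 with 34.

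The same gradient ran through all broadly expressed models, of which the members are the far end. With the 11654 models in 10 classes of nearly equal number, the median log2 fold change, floral minus vegetative, went from 1.19 in the shortest class (153 to 459 bp) through 0.26 and 0.10 in the middle classes to -0.96 in the longest (2535 to 13050 bp). Every step between neighbouring classes was downward. The gradient also ran between tissues of 1 class. The median of bud minus petal and labellum went from 0.28 in the shortest class to -0.42 in the longest, that of labellum minus petal from -0.35 to 0.41 and that of root minus stem and leaf from -0.19 to 0.18. In stem minus leaf it stayed between -0.08 and 0.10. The slope also differed between libraries of 1 tissue, as the median log2 deviation from each model's mean over all libraries. From the shortest to the longest class it went from 0.84 to -0.99 in bud replicate 1 and from 0.70 to -0.61 in bud replicate 2. In the root replicates it went from -0.74 to 0.72 and from -0.69 to 0.53. The stem replicates were closely alike, from -0.50 to 0.50 and from -0.51 to 0.49. The 200 shortest models had a median of 1.42 in floral minus vegetative, with 124 called higher and 10 lower.

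With a smooth trend of level on coding length removed from each library, 23 members were called higher and 10 lower in floral tissues, in place of 4 and 147. The median member fold change was then 0.05, and all tested models were called higher in 19.3% and lower in 17.4%. The removal sets the typical long model close to no change by construction, so these values show each member relative to a fitted trend. Each point of that trend drew on a wide range of lengths (loess span 0.5 over all tested models, median 1134 bp). For the longest members it therefore rested mostly on shorter models, and its fit at those lengths was not tested. All 4 higher members remained called, and the 10 lower ones had all been called lower before. They included the 3 members named above as falling most. How much of the gradient reflects the tissues and how much the libraries was not tested.

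**Figure D4:**
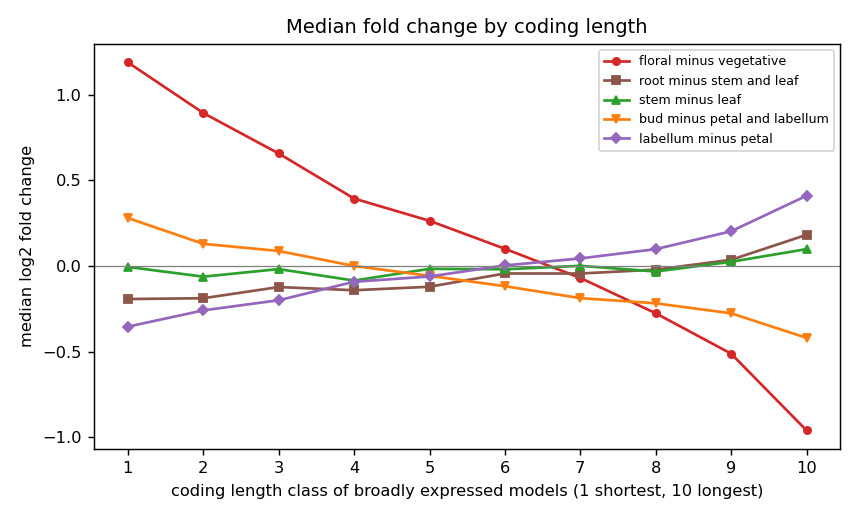
Median log2 fold change of broadly expressed models in 10 classes of coding length, from shortest (1) to longest (10), for 5 comparisons of tissues, each a line. The line of floral minus vegetative descends from 1.19 to -0.96, and those of labellum minus petal and of root minus stem and leaf rise overall.

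Root, against stem and leaf, had more long models higher than lower, but fewer of either than models at large. Against the mean of stem and leaf, 23 members were higher in root and 10 were lower (edgeR quasi-likelihood test, adjusted p under 0.05 and at least 2-fold). The corresponding shares of all tested models were 17.0% and 22.6%, both above the members' 11.5% and 5.0%. The median log2 fold change of the members was 0.30, against -0.16 over all tested models. It was 0.14 without root replicate 1, and 0.17 with the trend on coding length removed, where 20 members were higher and 12 lower. Of all tested models 20.6% were then called higher and 19.2% lower. With DESeq2 size factors in place of TMM, 32 members were higher and 8 lower, and the median of all tested models moved from -0.16 to -0.03.

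The most abundant members were among the root-high ones. evm.model.Chr18.486-gene (chromosome 18, 4338 bp) had the highest mean level of all members and stood at 379 and 428 FPKM in the root libraries, 27.1 and 29.9 in stem, 51.5 and 50.3 in leaf, 54.99 and 71.6 in bud, 78.4 and 108 in petal and 81.3 and 91.5 in labellum. The root libraries exceeded all others several-fold and stem was lowest. The fitted log2 fold change, root minus stem and leaf, was 3.41 ± 0.15 (SE), with an adjusted p of 1.58e-07 (edgeR quasi-likelihood test). evm.model.Chr19.35-gene (chromosome 19, 4308 bp), which varied most of all members with a ratio of 81.3 between tissue means, stood at 195 and 289 FPKM in the root libraries, 3.54 and 3.31 in stem, 25.3 and 23.2 in leaf, 17.2 and 51.4 in bud, 109 and 153 in petal and 365 and 192 in labellum. Root, petal and labellum were high, bud and leaf intermediate and stem lowest. Between these tissues its log2 fold change was 4.73 ± 0.38, with an adjusted p of 4.73e-06 in the same edgeR test. The third most abundant, evm.model.Chr07.403-gene (chromosome 7, 4308 bp), stood at 294 and 353 FPKM in the root libraries, 31.2 and 27.9 in stem, 41.2 and 39.7 in leaf, 26.01 and 31.5 in bud, 60.8 and 83.9 in petal and 80.6 and 74.5 in labellum. This profile, too, peaked in root and was low in stem and bud. The coding lengths of these 3 members lay between 4308 and 4338 bp.

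evm.model.Chr19.181-gene (chromosome 19, 4443 bp) was the third root-high member and stood at 40.2 and 64.3 FPKM in the root libraries, 20.3 and 20.2 in stem, 1.45 and 1.13 in leaf, 1.77 and 2.74 in bud, 2.73 and 4.27 in petal and 7.96 and 6.97 in labellum. Root and stem were high and leaf was near the floor. Its log2 fold change was 3.35 ± 0.23 in root against stem and leaf and 3.79 ± 0.31 in stem against leaf, with adjusted p of 1.79e-06 and 5.85e-05 (edgeR quasi-likelihood test).

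The 3 members that fell most in root had their highest levels in stem or leaf. evm.model.Chr12.1214-gene (chromosome 12, 5307 bp) stood at 2.99 and 2.28 FPKM in the root libraries, 90.8 and 93.7 in stem, 78.4 and 77.5 in leaf, 9.95 and 26.2 in bud, 9.74 and 10.6 in petal and 29.8 and 17.995 in labellum. Stem and leaf were high, root was lowest of the 6 tissues and the floral libraries lay between. The log2 fold change was -4.98 ± 0.41 (SE) and the adjusted p 5.60e-06 (edgeR quasi-likelihood test). evm.model.Chr09.2610-gene (chromosome 9, 5406 bp) stood at 4.54 and 2.83 FPKM in the root libraries, 58.3 and 57.6 in stem, 119 and 115 in leaf, 1.73 and 2.95 in bud, 1.66 and 1.98 in petal and 4.18 and 3.92 in labellum. Leaf was highest and stem next, and root was close to the floral tissues. The fitted log2 fold change was -4.45 ± 0.27, with an adjusted p of 7.04e-07 (edgeR). The third, evm.model.Chr02.1191-gene (chromosome 2, 4431 bp), had means of 24.3 ± 0.461 FPKM in root, 79.1 ± 0.263 in stem and 127 ± 0.363 in leaf (SD, n = 2 each), and 7.86 ± 1.5 in petal. Between these tissues its log2 fold change was -2.04 ± 0.24, with an adjusted p of 6.73e-05 in the edgeR test.

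**Figure D5:**
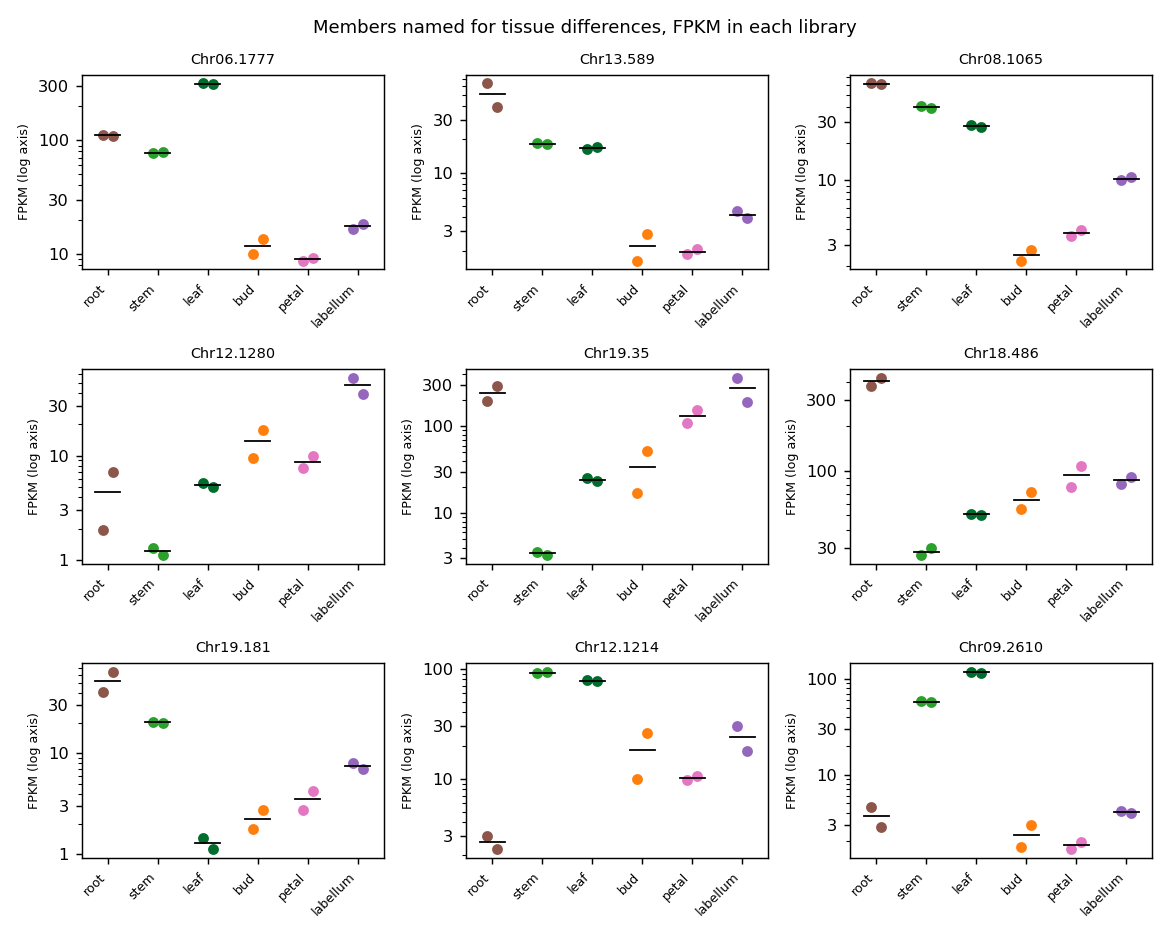
FPKM (log axis, scaled for each panel) of 9 named members in each of 2 libraries per tissue (points) with the tissue mean (bar). The top row shows members low in all 3 floral tissues, the middle row members highest in labellum or root, and the bottom row a member lowest in leaf, one lowest in root and one high in stem and leaf alone.

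Between stem and leaf few long models were called, and the share called lower in stem was under that of models at large. In stem against leaf 13 members were higher and 10 lower (edgeR quasi-likelihood test), 6.5% and 5.0% of members against 7.01% and 8.27% of all tested models, and 170 did not pass the adjusted p. Of all broadly expressed models 4.83% were called higher and 9.19% lower. The spread behind this test was shared with tissues whose replicates lay farther apart, so members that did not pass may still differ. With limma-voom and a variance weight per tissue the calls were again 13 higher and 10 lower. Besides evm.model.Chr19.181-gene, the largest rises in stem were those of evm.model.Chr08.284-gene (chromosome 8, 6582 bp) and evm.model.Chr12.581-gene (chromosome 12, 5418 bp). The former stood at 59.2 and 43.3 FPKM in the root libraries, 16.1 and 16.4 in stem, 3.72 and 3.22 in leaf, 2.08 and 2.13 in bud, 1.19 and 1.25 in petal and 4.71 and 3.81 in labellum. Root was highest and petal lowest. The latter stood at 50.3 and 46.3 FPKM in the root libraries, 163 and 163 in stem, 46.2 and 44.3 in leaf, 15.3 and 31.8 in bud, 35.7 and 38.5 in petal and 68.4 and 57.7 in labellum. Both stem libraries lay far above all others. Their log2 fold changes, stem minus leaf, were 2.04 ± 0.19 and 1.66 ± 0.25 (SE), with adjusted p of 0.000117 and 0.00156 (edgeR). In the other direction, evm.model.Chr19.35-gene, evm.model.Chr12.1280-gene and evm.model.Chr14.1121-gene (chromosome 14, 4332 bp) were lower in stem, by log2 fold changes of -3.01 ± 0.46, -2.30 ± 0.49 and -2.30 ± 0.40, with adjusted p of 0.00172, 0.00937 and 0.00328 (edgeR). The 23 calls became 13 without stem replicate 1 (9 higher, 4 lower), 15 without stem replicate 2 and 15 without leaf replicate 1. The call of evm.model.Chr12.1280-gene was lost without stem replicate 1 (adjusted p = 0.0682) and without stem replicate 2 (adjusted p = 0.0887). With total counts in place of TMM, 14 were higher and 7 lower, and the median of all tested models moved from 0 to 0.18. With the trend on coding length removed 10 were higher and 11 lower, and the members' median went from 0.17 to -0.01. Of all tested models 6.82% were then called higher and 8.57% lower.

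Within the flower, bud was called lower than the mean of petal and labellum in a minority of members. By mean FPKM, petal alone lay above bud in 101 of the 200 members. Against the mean of petal and labellum, 27 members were lower in bud and 1 was higher (edgeR quasi-likelihood test), where 6.19% of all tested models were called lower and 12.6% higher. Of all broadly expressed models 7.34% were called lower and 6.37% higher. The median log2 fold change of the members was -0.52, against 0.03 over all tested models. This comparison rested on the bud libraries, which differed in the long models. Of the 200 members 169 were higher in bud replicate 2 than in replicate 1 as a share of total counts, with a median log2 ratio of 0.62, and 58 differed at least 2-fold. The median ratio was 0.22 over all broadly expressed models and 0.05 over the 200 shortest. Without bud replicate 1 the calls were 12 lower and 0 higher, with a median of -0.32. Without bud replicate 2 they were 71 lower and 1 higher, with a median of -0.78. The calls of both directions together, 28, were 14 with total counts in place of TMM. They were 12 with limma-voom and a variance weight per tissue, which changes both the method and the model of spread. With the trend on coding length removed 7 members were lower and 5 higher, and the median was -0.03. Of all tested models 6.28% were then called lower and 11.6% higher.

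The largest fall in bud was that of evm.model.Chr19.35-gene, at 34.3 ± 24.2 FPKM in bud against 131 ± 31.2 in petal and 278 ± 122 in labellum (SD, n = 2 each). Its log2 fold change was -2.64 ± 0.42 (SE), with an adjusted p of 0.00168 (edgeR quasi-likelihood test), and was -2.10 without bud replicate 1 and -3.52 without bud replicate 2. evm.model.Chr11.1175-gene (chromosome 11, 5667 bp) stood at 29.9 and 26.1 FPKM in the root libraries, 30.2 and 31.5 in stem, 32.7 and 32.9 in leaf, 3.47 and 13.8 in bud, 18.1 and 23.5 in petal and 29.6 and 24.2 in labellum. Here bud stood below all other tissues, but its replicates differed several-fold. The log2 fold change was -1.63 ± 0.40 with an adjusted p of 0.0139 (edgeR). It was -0.99 without bud replicate 1, which is under the 2-fold threshold, and -2.82 without bud replicate 2. evm.model.Chr17.1448-gene (chromosome 17, 4566 bp) stood at 20.5 and 13.1 FPKM in the root libraries, 27.2 and 28.4 in stem, 8.25 and 8.46 in leaf, 1.34 and 2.81 in bud, 3.82 and 4.39 in petal and 8.12 and 5.91 in labellum. Bud was lowest and stem highest, and the log2 fold change of bud was -1.52 ± 0.28, with an adjusted p of 0.00347 (edgeR), and was -1.14 and -2.05 without bud replicates 1 and 2 in turn. The 1 member higher in bud was evm.model.Chr13.1303-gene (chromosome 13, 4857 bp), at 15.1 ± 3.43 FPKM in bud, 8.69 ± 0.277 in petal and 5.37 ± 0.219 in labellum (SD, n = 2 each). Its log2 fold change of 1.03 ± 0.17 (adjusted p = 0.00199, edgeR) was just past 2-fold, and was 0.68 without bud replicate 1, 1.00 without petal replicate 2 and 1.00 without labellum replicate 1, each under the threshold before rounding. With limma-voom and a variance weight per tissue the calls of evm.model.Chr17.1448-gene (adjusted p = 0.0765) and evm.model.Chr13.1303-gene (log2 fold change 0.985) were lost too.

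Labellum held more of the long models than petal did, by a small step. The fold change was above 0 for 181 of the 200 members, with a median of 0.60 against 0 over all tested models. Called members were 17 higher and 1 lower in labellum (edgeR quasi-likelihood test), against 2.09% and 1.67% of all tested models, and 156 members did not pass the adjusted p. evm.model.Chr07.1002-gene (chromosome 7, 4812 bp) stood at 81.1 and 77.6 FPKM in the root libraries, 46.8 and 46.2 in stem, 49.4 and 48.6 in leaf, 4.72 and 3.95 in bud, 4.73 and 4.57 in petal and 25.4 and 32.9 in labellum. Both labellum libraries lay well above petal and bud and below the vegetative libraries. The fitted log2 fold change, labellum minus petal, was 2.54 ± 0.19 (SE), with an adjusted p of 0.000324 (edgeR). In evm.model.Chr12.1280-gene labellum stood at 47.5 ± 11.9 FPKM and petal at 8.79 ± 1.7 (SD, n = 2 each), and in evm.model.Chr18.2222-gene (chromosome 18, 4848 bp) at 9.38 ± 1.6 and 2.23 ± 0.266 (n = 2 each). Their log2 fold changes were 2.32 ± 0.48 and 1.97 ± 0.31, with adjusted p of 0.0257 and 0.00883 (edgeR). The 1 lower member, evm.model.Chr01.955-gene (chromosome 1, 4380 bp), was at 13.2 ± 5.4 FPKM in petal and 3.23 ± 0.999 in labellum (SD, n = 2 each), a log2 fold change of -2.13 ± 0.36 with an adjusted p of 0.0117 (edgeR).

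These calls moved with single libraries, those of other tissues among them, and the cause was not tested. The spread in the fit was shared by all tissues, so leaving out a library of any tissue also changes the spread used here. The biological coefficient of variation ran from 0.0725 in leaf to 0.579 in bud. Without either bud library there were 20 calls. The 18 calls became 4 without petal replicate 1, 4 without petal replicate 2, 5 without labellum replicate 2 and 11 without labellum replicate 1, and 11 without either stem or either leaf library. With limma on log2(FPKM + 1) there were 10, and with the trend on coding length removed 7. These 7 were 3 higher and 4 lower, against 1.58% and 1.33% of all tested models, and the median fell to 0.05. The member evm.model.Chr12.1280-gene lost its call in these same 8 cases (adjusted p from 0.0555 to 0.188), and with the length trend removed (0.0641). The call of evm.model.Chr18.2222-gene was lost without petal replicates 1 and 2 and labellum replicate 2 in turn (0.0950, 0.0819 and 0.0605), and that of evm.model.Chr01.955-gene without petal replicate 2 and labellum replicate 2 (0.0967 and 0.108).

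A few members were steady across the plant. evm.model.Chr10.658-gene (chromosome 10, 5892 bp) had the smallest ratio between tissue means, 1.52, and stood at 11.4 and 11.01 FPKM in the root libraries, 13.5 and 12.4 in stem, 9.35 and 10.3 in leaf, 10 and 17.3 in bud, 10.7 and 11.2 in petal and 16.4 and 13.4 in labellum. Libraries of several tissues overlapped and bud replicate 2 was the highest. It still passed the test over all 6 tissues, with an adjusted p of 0.0415 (edgeR). The next were evm.model.Chr01.553-gene (chromosome 1, 4497 bp) with a ratio of 1.82 and evm.model.Chr12.462-gene (chromosome 12, 4926 bp) with 2.15. In the former root was highest on average, bud replicates differed most, and the test over all 6 tissues gave an adjusted p of 0.518 (edgeR quasi-likelihood test). In the latter root was highest and bud lowest.

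Members with consecutive numbers on a chromosome formed 3 pairs. They were evm.model.Chr01.7-gene and evm.model.Chr01.8-gene (6651 and 5157 bp), evm.model.Chr12.789-gene and evm.model.Chr12.790-gene (4608 and 5994 bp), and evm.model.Chr17.1798-gene and evm.model.Chr17.1799-gene (7410 and 4389 bp). In the first pair the root means were 26.02 ± 3.19 and 10.99 ± 1.44 FPKM and the stem means 25.9 ± 0.031 and 19.7 ± 0.594 (SD, n = 2 each). In the second they were 7.81 ± 0.594 and 15.5 ± 0.712 in stem and 6.36 ± 0.186 and 3.52 ± 1.06 in labellum. In the third they were 43.9 ± 0.529 and 7.6 ± 0.397 in stem and 5.86 ± 0.46 and 2.24 ± 0.27 in petal. Partners differed in length and in the order of their tissues, and reads that such neighbours could share were not tested, since no source used here gives the counting rule.

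The limits of the list were narrow steps. On length, the 2 shortest members were evm.model.Chr12.1280-gene with 4290 bp and evm.model.Chr13.654-gene with 4284 bp. The next broadly expressed models, evm.model.Chr19.496-gene with 4263 bp and evm.model.Chr12.1112-gene with 4260 bp, stayed outside. Those outside stood at 11.98 ± 1.2 and 5.58 ± 0.613 FPKM in root and 2.84 ± 0.416 and 10.6 ± 0.853 in petal (SD, n = 2 each), and evm.model.Chr13.654-gene at 42.01 ± 3.8 and 8.28 ± 1.1 in the same tissues. On level, evm.model.Chr06.2128-gene passed with a lowest FPKM of 1.01, in bud replicate 1, and evm.model.Chr06.2179-gene missed the floor at 0.993 in the same library. Of the 463 models at least as long as the shortest member, 263 missed the floor in some library. Of these 152 were under it in all 12 libraries, 67 in floral libraries alone, 4 in vegetative libraries alone and 40 in some of both. The floor thus removed more long models for a low floral level than for a low vegetative one, and the members leave those out.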

How the data were processed

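Messenger RNA was sequenced from 12 libraries, 2 from each of 6 tissues, after column purification of RNA (Qiagen) and library construction with a SMARTER mRNA-seq kit, per the labels' protocols. The authors deposited, for each library, counts per gene model, which are raw whole numbers, and the FPKM computed from them. For the aligner, counting rule, strand setting and annotation the entry is "not given in the sources used here". GRCm38 and mm10, which are mouse builds, are named by the submitters' processing notes, whereas the identifiers are models on 19 numbered chromosomes and on scaffolds, and which genome the reads were aligned to was not tested. Reads of near-identical, overlapping or antisense models may therefore be split or shared.

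Coding length was the median over libraries of the count times 1e9 divided by the FPKM and by the library total, rounded. It matched all 224365 values checked within 0.01 bp, and all 22389 lengths were multiples of 3. The members are the 200 longest models whose FPKM reached 1 in all 12 libraries. They and the lists were chosen with earlier results of these data known.

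Counts were fitted with edgeR 4.0.16 (R 4.3.3; filterByExpr, TMM, quasi-likelihood test, 6 tissue groups, 6 residual degrees of freedom) over 19123 models, with Benjamini-Hochberg adjustment over all of them. A call needs an adjusted p under 0.05 and at least 2-fold. Levels are FPKM, as mean ± SD of 2 libraries. Models are named by rule, as the 3 longest, the 3 with the largest fold among called members without overlap in each comparison and direction, the 3 most abundant, the 3 steadiest and the 3 most variable, the models at the limits of the list and those with consecutive numbers. Alternatives were DESeq2 1.42.0, limma 3.58.1 on log2(FPKM + 1) and log2(FPKM + 0.1), limma-voom weighting each tissue by its own variance, other scalings, filters, list sizes and floors, removal of a loess trend (span 0.5) on coding length, a replicate block, and each library left out. Replicate numbers do not pair the tissues by any label. Leaving out both bud or both root libraries, and the alternatives for the length gradient, the share and the highest tissue by library, were added after seeing the data. The fitting code was tested on simulated data with the same spread in every tissue, so that test does not cover the unequal spread of these tissues.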

Additional observations from a re-analysis of the deposited data

How the results depend on the processing

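With each library left out in turn, the calls among the 200 members ranged from 191 to 199 for any difference, 144 to 153 for floral against vegetative (135 without both bud libraries), 30 to 36 for root, 13 to 23 for stem against leaf, 12 to 72 for bud and 4 to 20 for labellum against petal. The median log2 fold changes ranged from -1.55 to -1.37 (-1.28 without both bud libraries), 0.142 to 0.397, 0.146 to 0.173, -0.784 to -0.315 and 0.541 to 0.684 in the same order of comparisons. The share ratio ranged from 2.72 to 2.97, the percent of members highest in a vegetative tissue from 96.0 to 97.0, and the difference in median log2 fold change between the longest and shortest of 10 length classes, floral minus vegetative, from -2.24 to -2.06 (-2.15 with all libraries).

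Removing each library's trend with coding length acts by construction on the longest models. It left 33 calls in floral against vegetative, 12 in bud and 7 in labellum (33, 12 and 5 with the replicate block as well). The bud calls were then 7 lower and 5 higher and the labellum calls 3 higher and 4 lower. The medians became 0.0509, -0.0296 and 0.047 (0.0493, -0.0234 and 0.0492 with the block), those of root and of stem against leaf 0.168 and -0.00921, and the difference between the longest and shortest class became -0.191. The fold changes of evm.model.Chr09.103-gene, evm.model.Chr01.221-gene and evm.model.Chr18.1522-gene turned to 0.941, 0.487 and 0.665 (0.937, 0.487 and 0.664 with the block).

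Bud calls, 28 in the fit reported, were 14 with total counts, 11 with limma on log2(FPKM + 1), 10 on that scale without a filter, 18 on log2(FPKM + 0.1) and 12 with limma-voom and a variance weight per tissue. Labellum calls, 18 in the fit reported, were 10 on log2(FPKM + 1) with and without a filter. The floral median was -1.69 with total counts, where the whole table's median shifted from 0.05 to -0.19, and -1.69 on log2(FPKM + 0.1). It was -1.61 for the 100 longest models, -1.21 for the 400 longest and -1.19 with a floor of 2 FPKM. The share ratio was 3.39 and 2.61 for the 100 and 400 longest, and 3.31 and 2.48 with floors of 0.5 and 2 FPKM. The percent highest in a vegetative tissue was 99.0 for the 100 longest, 98.5 and 95.5 with floors of 0.5 and 2, and 95.5 with TMM-scaled CPM. The cause of these shifts was not tested. Over all results and alternatives, the direction and call were kept, or the value stayed within its set margin (1.5 times for counts), in 899 cases. It moved beyond that margin in 46, was classed as turned in sign in 8, and single named members lost a call in 24. The stem against leaf median without the length trend was -0.00921 (-0.00835 with the block) in place of 0.173. Its sign turned, but it was counted as within its margin. The floral calls, 4 higher and 147 lower, became 23 and 10 without the trend and were counted as moved. So were the labellum calls.

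The correlation of deviations between same-numbered replicates ran from -0.300 to 0.117 over 15 pairs of tissues and was over 0.1 in 1. Different tissues of 1 plant need not deviate alike, so these values cannot decide whether the numbers pair the samples. With the replicate block the calls were 193 for any difference, 150 floral, 33 root, 22 stem, 27 bud and 15 labellum. With 2 libraries per tissue and no record of separate plants, the precision of each tissue mean is limited.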
